A study of Mus musculus with 14 samples.

Results

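The urokinase and tissue-type plasminogen activators, the urokinase receptor and a serpin that inhibits the activators were followed on 14 arrays of SCp2 mouse mammary epithelial cells. The genes listed were Plau, Plat, Plaur, Serpinb2 and Serpine2, and a probe set counted as a member when the platform annotation named only that gene. This gave 6 probe sets for 4 of the 5 genes, out of 18193 genes with such a probe set: 1422139_at and 1422138_at for Plau, 1452521_a_at for Plaur, 1415806_at and 1458553_at for Plat, and 1419082_at for Serpinb2. No probe set was annotated with Serpine2 alone, so Serpine2 is not analysed here.

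SCp2 is an established line, and in both experiments every dish was of this line, in DMEM with 2% FCS. A dish of 35 mm received cells at a density labelled 25K, 50K, 100K or 250K and was then a control or was treated with MMP3 (stromelysin-1, a secreted metalloprotease that cleaves matrix and cell surface proteins) over 3 days, and its total RNA went onto 1 Affymetrix mouse array. Experiment A had 6 arrays, control and MMP3 at 50K, 100K and 250K. Experiment B had 8, with 25K added, so that a combination of agent and density was measured on 1 array within an experiment. The labels do not give the dose of MMP3 or say whether dishes came from separate cultures, and p-values measure only the spread among these dishes, which may be technical.

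Plasminogen is a circulating zymogen that is cut to plasmin, a broad serine protease that dissolves fibrin, degrades matrix and can activate latent metalloproteases. The urokinase-type activator (uPA, gene Plau) does this at the cell surface, where it is held by a lipid-anchored receptor (uPAR, gene Plaur), while the tissue-type activator (tPA, gene Plat) works best on fibrin. Plasminogen activator inhibitor type 2 (gene Serpinb2) is a serpin that inactivates both activators and is kept mostly inside the cell. In the mammary gland, plasmin activity is known for its part in the remodelling that follows weaning.

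The deposited values are relative log2 expression. Each probe set has its median over the 14 arrays at 0, so 1 unit is a doubling, a positive value lies above that probe set's own median, and neither absolute levels nor levels of different genes can be compared. Probe sets that are not controls were kept when their SD over the 14 arrays reached the 40th percentile (0.049), and 27022 were fitted with limma. All 6 member probe sets passed, with SDs of 2.42 for Serpinb2, 1.41 for Plaur, 1.32 and 1.10 for Plau, 0.32 for Plat 1415806_at and 0.05 for Plat 1458553_at, the last just inside the limit. A difference was called at a Benjamini-Hochberg adjusted p under 0.05 over all probe sets fitted.

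The array labelled MMP3 100K of experiment B stood apart, with an SD over probe sets of 0.87 against at most 0.41 on the others, and with the largest actin control difference (3′ minus 5′), 0.65 against at most 0.19. MMP3 effects in B, differences between experiments and correlations that rest on it are given without it as well. Ifit1, an interferon-induced gene, was above 0 on the 3 MMP3 arrays of A and below 0 on the 3 controls, but in B it was above 0 on the control and MMP3 arrays at 50K and 250K and below 0 on the other 4, against the agent labels. Arrays of B are called by their labels throughout. In A the 18S control probe set was at 0.45 to 0.83 in controls and 0.92 to 1.15 with MMP3, and the 3′ minus 5′ difference of Gapdh at -0.03 to 0.03 and 0.04 to 0.17, so both moved with every MMP3 difference of A, while the actin difference overlapped (-0.05 to 0.11 and -0.145 to 0.09). In B the ranges of these measures overlapped between agents, but the actin difference was higher with MMP3 in 4 of 4 pairs (-0.04 and 0.18 for control and MMP3 at 25K, -0.34 and -0.12 at 50K, 0.08 and 0.65 at 100K, -0.13 and 0.19 at 250K). The part of these measures in the results was not tested.

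Upstream sequence was on hand in the RefSeq promoter table (GRCm38.p6) for 2 of the 4 genes with a probe set, Plaur and Serpinb2. The 250 bases before the first listed start of each are shown. These 2 genes also varied most over the arrays among the members. Capitals mark matches to the AP-1 motif TGANTCA, which is its own reverse complement, and to the TATA box TATAAA.
Plaur promoter, chr7:24462233-24462482, plus strand: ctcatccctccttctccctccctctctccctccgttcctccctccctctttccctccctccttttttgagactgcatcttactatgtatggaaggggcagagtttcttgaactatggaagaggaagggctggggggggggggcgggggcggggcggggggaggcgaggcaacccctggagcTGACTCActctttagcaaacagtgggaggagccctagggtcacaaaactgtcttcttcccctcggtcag
Serpinb2 promoter, chr1:107511173-107511422, plus strand: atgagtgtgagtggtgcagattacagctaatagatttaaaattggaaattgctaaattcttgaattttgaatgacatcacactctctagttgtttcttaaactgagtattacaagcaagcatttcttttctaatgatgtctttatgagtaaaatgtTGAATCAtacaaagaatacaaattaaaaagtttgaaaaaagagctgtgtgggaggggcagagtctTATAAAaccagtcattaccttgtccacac

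Both windows held an AP-1 match, TGACTCA at 69 to 63 bases before the Plaur start and TGAATCA at 94 to 88 bases before the Serpinb2 start. Of 32851 mouse promoter windows of this length, 6.75% held TGANTCA on either strand. They differed in the rest. Serpinb2 had TATAAA at 29 to 24 bases before its start (in 12.4% of windows), no CpG and 32.4% GC, against a median of 52.4% GC over all windows, whereas Plaur had 3 GC boxes (GGGCGG, in 32.7% of windows, the last 2 overlapping by 1 base), no TATAAA and 59.6% GC. Neither window held TGACGTCA (CRE), GGAATG (TEAD) or CAGGAAG (Ets), found in 1.55%, 12.6% and 10.8% of windows. These are letter matches in 1 window per gene and say nothing of binding.

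**Figure D1:**
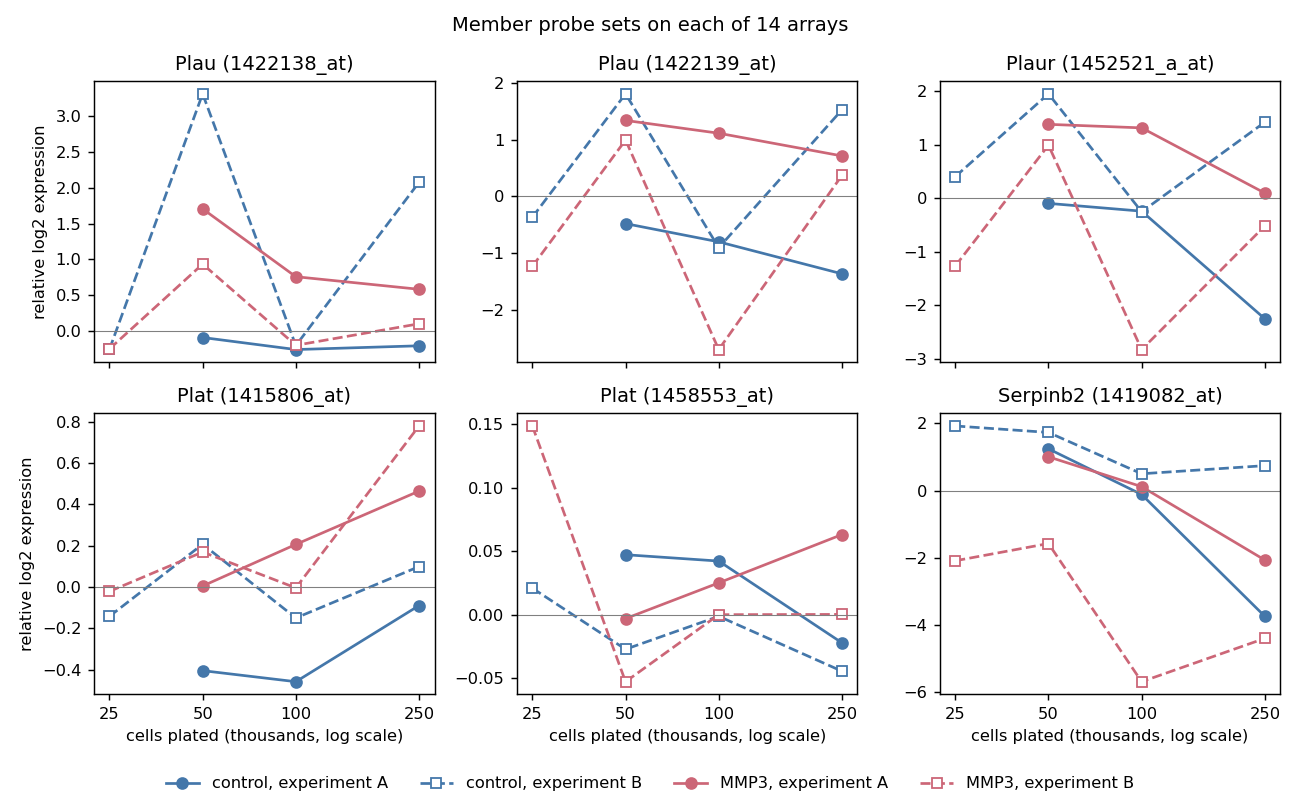
Relative log2 expression (y axis, scale set per panel) of each of the 6 member probe sets against the cells plated (x axis, in units of K as in the labels, log scale), 1 point per array, blue for control and red for MMP3, filled circles and solid lines for experiment A, open squares and dashed lines for B. In A the MMP3 points of both Plau probe sets, Plaur and Plat 1415806_at lie above every control point of A, and in B the MMP3 points of Serpinb2 lie below every control point.

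Urokinase was higher with MMP3 at every density of experiment A and lower at every density of B on its more variable probe set. Plau 1422139_at read -0.48, -0.80 and -1.37 in the controls of A at 50K, 100K and 250K, and 1.34, 1.11 and 0.71 with MMP3 in that order. The groups did not overlap, and within each agent the value was lowest at 250K. In B, from 25K to 250K, the controls read -0.37, 1.81, -0.91 and 1.53 and the MMP3 arrays -1.24, 0.99, -2.70 and 0.37. Here the 50K and 250K arrays were high and the 25K and 100K arrays low under both agents, and the groups overlapped although MMP3 was below control in 4 of 4 pairs of equal density. The fitted MMP3 effect was 1.94 in A (SE 0.05, 3.83-fold, limma adjusted p = 0.0141, higher in 3 of 3 pairs). In B it was -1.16 (SE 1.10, adjusted p = 0.737), and -0.43 without the MMP3 100K array.

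The other Plau probe set varied on fewer arrays. Plau 1422138_at read -0.10, -0.26 and -0.21 in the controls of A and 1.71, 0.76 and 0.58 with MMP3. In B the controls read -0.26, 3.32, -0.21 and 2.08 and the MMP3 arrays -0.26, 0.93, -0.21 and 0.10. It thus lay near -0.2 on 7 arrays (-0.26 to -0.10), where differences between agents were 0.0060 at 25K and 0.0036 at 100K of B. The effect in A was 1.20 (SE 0.18, 2.30-fold, limma adjusted p = 0.0349, higher in 3 of 3 pairs), and it fell short of the threshold with matched pairs as a block (adjusted p = 0.0760). In B the effect was -1.09 (SE 0.94, adjusted p = 0.716), and -0.32 without the control array at 50K.

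The receptor followed the same course as its ligand. Plaur 1452521_a_at read -0.10, -0.24 and -2.25 in the controls of A and 1.38, 1.31 and 0.10 with MMP3, groups that did not overlap, with the 250K array lowest under each agent. In B the controls read 0.40, 1.95, -0.25 and 1.42 and the MMP3 arrays -1.27, 0.99, -2.83 and -0.52, lower with MMP3 in 4 of 4 pairs, with overlapping groups. The effect was 1.79 in A (SE 0.34, 3.47-fold, limma adjusted p = 0.0493, higher in 3 of 3 pairs). This call lay at the threshold and was lost with array medians subtracted (adjusted p = 0.0537) and with a robust prior variance (adjusted p = 0.0575). In B the effect was -1.79 (SE 0.98, adjusted p = 0.589), and -1.13 without the MMP3 100K array.

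Tissue-type activator differed by less, and leaned the same way in both experiments. Plat 1415806_at read -0.40, -0.46 and -0.09 in the controls of A and 0.0046, 0.21 and 0.46 with MMP3, without overlap. In B the controls read -0.14, 0.21, -0.15 and 0.10 and the MMP3 arrays -0.02, 0.17, -0.0046 and 0.78, where only the 250K array with MMP3 lay beyond the control range. The effect was 0.54 in A (SE 0.08, 1.46-fold, limma adjusted p = 0.0349, higher in 3 of 3 pairs) and 0.23 in B (SE 0.17, adjusted p = 0.674, higher in 3 of 4 pairs), or 0.06 in B without MMP3 250K. Over all 14 arrays it was 0.36 (SE 0.10, adjusted p = 0.100), MMP3 lay above control in 6 of 7 pairs, and an exact two-sided sign-flip permutation test over the 7 pairs gave p = 0.0313 (0.188 adjusted over the 6 member probe sets; 0.0156 is the smallest p that 7 pairs allow). This value was called without the control array at 50K of B (adjusted p = 0.0374) and without MMP3 100K of B (adjusted p = 0.0174). Each of these omissions also raised the calls among all probe sets above the 589 (2.18%) of the fit to all 14 arrays. The rise was larger without MMP3 100K of B. Leaving out the control array at 250K of A raised them too, but Plat 1415806_at was then not called. The change in calls was thus not particular to Plat. Plat 1458553_at spanned only 0.20 over all arrays, from -0.05 to 0.15, and its effect was 0.01 in A (SE 0.04, adjusted p = 0.924) and 0.04 in B (SE 0.09, adjusted p = 0.877).

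The inhibitor had the widest range of the members, 7.61 from its lowest array, MMP3 100K of B, to its highest. Serpinb2 1419082_at read 1.24, -0.12 and -3.74 in the controls of A and 1.005, 0.12 and -2.07 with MMP3. Values there were lower at each higher density under both agents, and the groups overlapped. In B the controls read 1.92, 1.73, 0.50 and 0.74 and the MMP3 arrays -2.09, -1.58, -5.69 and -4.40. Every MMP3 array of B lay below every control of B, with differences within pairs of -4.01, -3.30, -6.19 and -5.14 from 25K to 250K, or 16.1-, 9.88-, 72.8- and 35.2-fold lower. The MMP3 arrays at 100K and 250K, lowest in Serpinb2, were also the highest in the actin 3′ minus 5′ difference given above, whose part was not tested. Of all probe sets fitted, 4.83% had every MMP3 array of B below every control. The fitted effect in B was -4.66 (SE 0.75, unadjusted p = 0.00120, 4 of 4 pairs lower) and did not pass the adjustment over all probe sets (limma adjusted p = 0.324). It was -4.00 without the MMP3 100K array. In A the effect was 0.56 (SE 0.33, adjusted p = 0.308, higher in 2 of 3 pairs), and it turned to -0.06 without the control array at 250K.

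**Figure D2:**
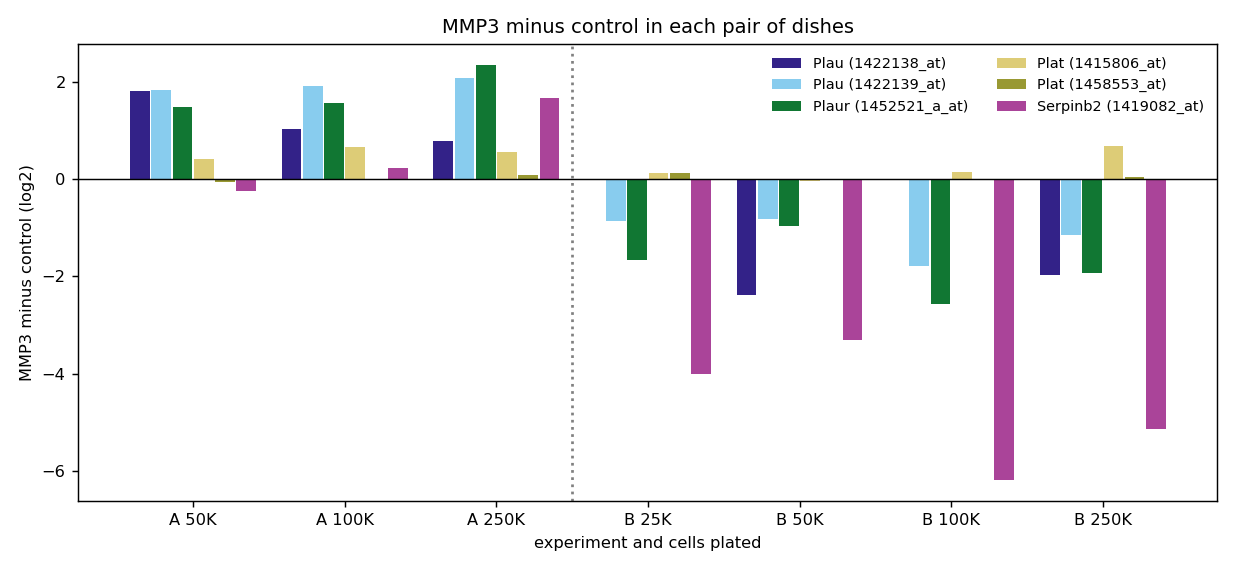
MMP3 minus control (y axis, log2) in each of the 7 pairs of dishes of equal density, grouped along the x axis by experiment and cells plated, 1 bar per member probe set and no error bars since each bar is 1 array minus 1 array. Bars of Plau 1422139_at and Plaur point up in all 3 pairs of A and down in all 4 pairs of B, and the Serpinb2 bars of B reach from -3.30 to -6.19.

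Across the members, 4 of 6 probe sets were called in A, all higher with MMP3, where 19.9% of all probe sets fitted were called, 2970 of the 27022 higher and 2409 lower. The same 4 were those whose groups did not overlap in A, which was so for 42.0% of all probe sets, 16.7% with MMP3 higher. In B, 0 of 6 were called, as were 0.00% of all probe sets. At an unadjusted p under 0.05 limma gave 1 of 6 in B, Serpinb2, beside 2864 probe sets (10.6%) in all. With all 14 arrays and the experiment fitted as a block, 0 of 6 were called, against 2.18% of all probe sets (unadjusted p under 0.05: 2 of 6, Plat 1415806_at and Serpinb2, beside 16.1%). Plau, Plaur and Serpinb2 then had effects of 0.17 (1422139_at, SE 0.78), -0.11 (1422138_at, SE 0.65), -0.25 (SE 0.81) and -2.42 (SE 0.98, adjusted p = 0.246).

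The calls in A rest on 6 arrays and 2 residual degrees of freedom. When each of these arrays was dropped in turn, 0 members were called, as were 0 of all probe sets fitted. With the filter on variation removed only Plau 1422139_at was called among the members, beside 4.11% of all probe sets.

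The opposite directions in A and B were tested on the 12 arrays at densities that both experiments had. The MMP3 effect in B minus that in A was -3.19 (95% interval -5.71 to -0.67) for Plau 1422139_at, -2.66 (-4.53 to -0.79) for Plau 1422138_at, -3.62 (-6.42 to -0.82) for Plaur and -5.43 (-8.51 to -2.36) for Serpinb2. For Plat 1415806_at it was -0.28 (-0.78 to 0.22). The limma adjusted p was 0.266 for the Plau, Plaur and Serpinb2 probe sets and 0.498 for Plat 1415806_at. Thus 0 of 6 were called, as were 0.00% of all, while at an unadjusted p under 0.05 there were 4 of 6 members beside 4487 probe sets (16.6%). Without MMP3 100K of B the differences were -2.33 for Plau 1422139_at, -2.80 for Plau 1422138_at, -2.64 for Plaur, -4.42 for Serpinb2 and -0.18 for Plat 1415806_at (adjusted p between 0.282 and 0.681, limma). Without the control array at 100K of B, Plau 1422138_at passed (-3.49, adjusted p = 0.0424). Under this omission a small share of all other probe sets passed as well, where the fit to all 12 arrays called 0.00%. With any other of the 12 arrays left out, 0 of 6 members were called.

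**Figure D3:**
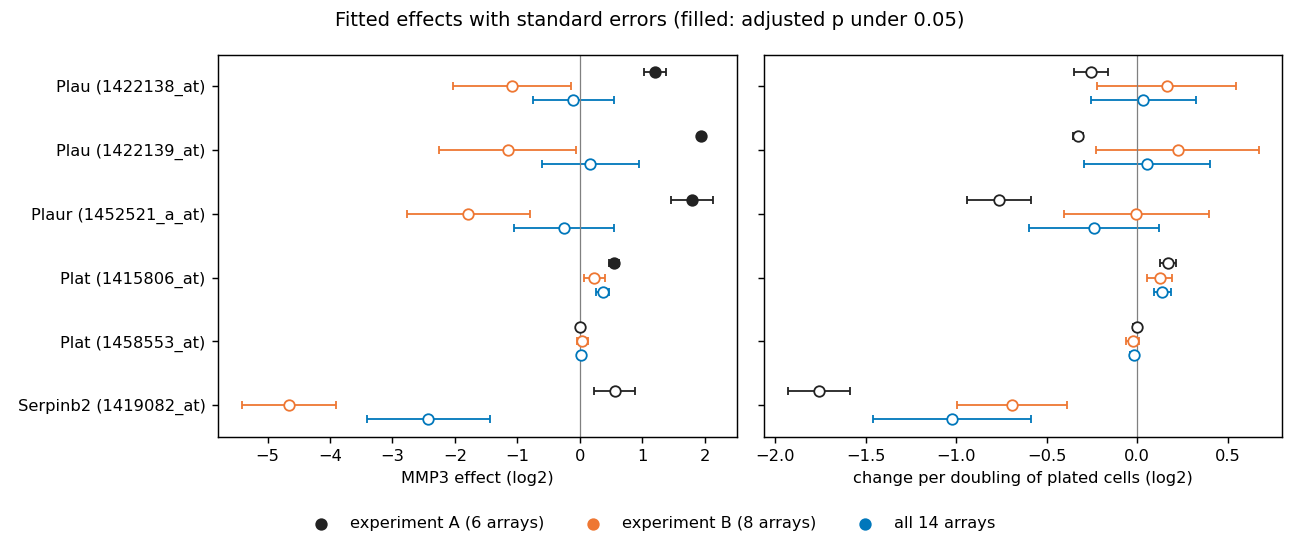
Fitted MMP3 effect (left, log2) and change per doubling of plated cells (right, log2) of the 6 member probe sets, with bars of 1 SE, in experiment A (black), experiment B (orange) and all 14 arrays (blue); a filled point has an adjusted p under 0.05. Filled points are those of both Plau probe sets, Plaur and Plat 1415806_at for MMP3 in A, and on the right Serpinb2 in A lies lowest at -1.76.

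Plated density was the second factor. Serpinb2 had the steepest slope of the members, -1.76 per doubling of plated cells in A (SE 0.17), -0.69 in B (SE 0.31) and -1.02 over all arrays (SE 0.44). In A it was -2.18 in controls and -1.34 with MMP3. Plaur had -0.77 (SE 0.18) and Plau 1422139_at -0.33 (SE 0.03) in A, while Plat 1415806_at had 0.17 (SE 0.04). In B, Plau 1422139_at had 0.22 (SE 0.45), Plaur -0.01 (SE 0.40) and Plat 1415806_at 0.12 (SE 0.07). After adjustment 0 of 6 were called in A, in B or over all arrays, as were 0.00% of all probe sets in each (limma; smallest adjusted p of a member 0.115, for Serpinb2 and Plau 1422139_at in A). At an unadjusted p under 0.05 the slope in A gave 4 of 6 members beside 27.0% of all probe sets, that in B 0 of 6 beside 3.59% and that over all arrays 2 of 6 beside 10.6%. Without the control array at 250K the slope in A was -0.36 for Plaur, -1.35 for Serpinb2 and 0.07 for Plat 1415806_at, and without the MMP3 array at 250K the slope of Plat 1415806_at in B was 0.02. The interaction of MMP3 and density over all arrays was called for 0 of 6, as for 0.00% of all; at an unadjusted p under 0.05 it was 0 of 6 beside 2.15%.

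With both experiments pooled, a level by condition has 2 arrays, or 1 array of B at 25K, so 25K is not ranked against the pooled means. Of the densities in both experiments, Serpinb2 was highest in the controls at 50K (1.49 ± 0.34, SD, n = 2), then in those at 100K (0.19 ± 0.44, SD, n = 2), a gap that exceeded the larger SD. Within B its controls at 25K and 50K read 1.92 and 1.73. Plat 1415806_at was highest with MMP3 at 250K (0.62 ± 0.22, SD, n = 2), above MMP3 at 100K (0.10 ± 0.15, SD, n = 2) by more than either SD. Plau 1422139_at was highest with MMP3 at 50K (1.17 ± 0.24, SD, n = 2), not separated from control 50K (0.66 ± 1.62, SD, n = 2), and the widest spread between experiments was that of MMP3 at 100K (-0.79 ± 2.70, SD, n = 2). For Plaur the top was also MMP3 at 50K (1.19 ± 0.28, SD, n = 2), not separated from control 50K (0.93 ± 1.45, SD, n = 2).

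Over the 14 arrays Plau 1422139_at and Plaur varied together, with Pearson's r = 0.929 and Spearman's rho = 0.947 (permutation p = 1e-05 for each, the smallest that 100000 permutations give, 8e-05 adjusted over 8 relations). Within A r was 0.903 and within B 0.945. Without the 2 arrays farthest from the median of Plau it was 0.867, and without MMP3 100K of B 0.892. Plaur and Serpinb2 had r = 0.777 and rho = 0.741 (permutation p = 0.00128 and 0.00371, adjusted 0.00341 and 0.00989), with r = 0.764 within A and 0.792 within B. This r was 0.540 without the 2 farthest arrays and 0.666 without MMP3 100K of B. Plau 1422139_at and Serpinb2 had r = 0.540 (permutation p = 0.0480, adjusted 0.0960), which fell to 0.196 without the 2 farthest arrays and so rests on them. Without MMP3 100K of B it was 0.308. Plat 1415806_at had r = 0.445 with Plau, 0.170 with Plaur and -0.397 with Serpinb2 (adjusted permutation p = 0.176, 0.562 and 0.213). The probe sets of Plau correlated at r = 0.809 and those of Plat at -0.168. These arrays share agents, densities and experiments, so they are not draws from 1 condition.

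**Figure D4:**
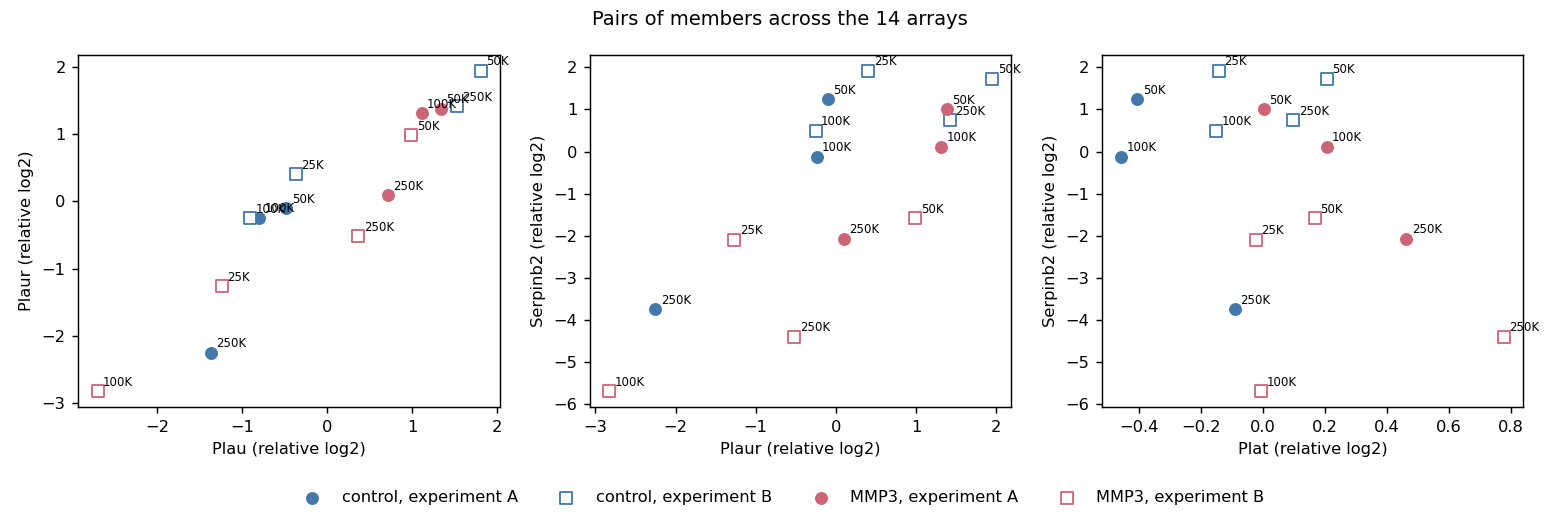
Relative log2 expression of Plaur against Plau, Serpinb2 against Plaur and Serpinb2 against Plat (lead probe sets), 1 point per array labelled with the cells plated, blue for control and red for MMP3, filled circles for experiment A and open squares for B. Plau and Plaur lie along a line (r = 0.929), while the 4 MMP3 arrays of B lie low in Serpinb2, at -1.58 or less, with Plat between -0.02 and 0.78 in the right panel. The control and MMP3 arrays at 250K of A also lie low in Serpinb2, at -3.74 and -2.07.

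On which arrays a member lay above its median differed between the genes. Both Plau probe sets and Plat 1415806_at had the sign of Ifit1 on 14 of 14 arrays, as did 7.72% of all probe sets fitted. Plaur had it on 12, Serpinb2 on 8 and Plat 1458553_at on 6.

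Among 21396 probe sets of other named genes, those most like Plau over the 14 arrays were Pkp2 (a desmosomal plaque protein, r = 0.994), Pvr (a nectin-like adhesion receptor, r = 0.990) and Endod1 (r = 0.990). Most like Plaur were Psmb10 (an immunoproteasome subunit, r = 0.988), Vgll3 (a TEAD cofactor, r = 0.988) and Dnaja1 (a co-chaperone, r = 0.986). Most like Plat were Tcn2 (a cobalamin carrier, r = 0.964), Lamp1 (a lysosomal membrane protein, r = 0.962) and Tom1l2 (r = 0.960). For Serpinb2 they were Qtrt2 (part of the enzyme that puts queuine into tRNA, r = 0.985), Aimp2 (a scaffold of the aminoacyl-tRNA synthetase complex, r = 0.981) and Ddx39a (an RNA helicase, r = 0.974). In size these differed from Serpinb2: their MMP3 effects in B were -0.94, -1.06 and -1.15.

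Other genes of plasminogen activation were read from lists, 1 probe set per gene. Their counts in A stand beside the 19.9% of all probe sets called there, or 11.6% with matched pairs as a block and 4.11% without the filter on variation. With any array of A omitted 0 genes of the 5 lists were called, as were 0 of all probe sets. Plg, which encodes plasminogen itself, varied too little to pass the filter. Of 9 genes tested from a list of proteases and related factors, 5 rose and 0 fell with MMP3 in A. Their median change was 0.78 against -0.03 over all probe sets, and without the filter on variation 3 rose. The tryptic protease Prss22 rose by 2.52 (SE 0.18), matriptase (St14) by 1.77 (SE 0.11), Prss23 by 1.25 (SE 0.18) and tissue factor (F3), which starts coagulation, by 0.96 (SE 0.13), at limma adjusted p between 0.0156 and 0.0344. In B 0 of 9 were called, with a median of -0.15. Of 3 plasminogen receptors 2 rose and 1 fell in A: Anxa2, 0.53 (SE 0.05), and S100a10, 0.49 (SE 0.07), which together form a surface receptor for plasminogen and tPA, and Plgrkt, -0.67 (SE 0.05), at adjusted p between 0.0160 and 0.0354; without the filter 1 rose and 1 fell. With matched pairs as a block S100a10 missed the threshold (adjusted p = 0.0819).

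Of 12 partners and clearance receptors of uPA, 6 rose and 1 fell in A (median 0.32), with matched pairs as a block 3 and 0, and without the filter 1 and 0. The very-low-density lipoprotein receptor Vldlr, which takes up uPA bound to its inhibitors, fell by 1.94 (SE 0.32, limma adjusted p = 0.0396; 0.0763 with the block). Lrpap1, a chaperone of such receptors, rose by 1.41 (SE 0.14, adjusted p = 0.0215; 0.0854 with the block). The integrin subunits Itgb5 and Itgav, which together bind vitronectin, rose by 1.11 (SE 0.14) and 0.94 (SE 0.14, with the opposite sign on 2 of its 4 other probe sets). Lrp1, the main clearance receptor, was not called.

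Of 11 genes tested from a list of other serpins, Kunitz inhibitors and Pebp1, 3 rose and 2 fell in A (median 0.01). With the block 2 rose and 0 fell, and without the filter 0 rose and 1 fell. Serpinb1a, a neutral protease inhibitor of the clade of Serpinb2, fell by 2.38 (SE 0.15, limma adjusted p = 0.0156; 0.0549 with the block). The Kunitz inhibitors of matriptase and related proteases, Spint1 and Spint2, rose by 1.87 (SE 0.23) and 0.97 (SE 0.12), and Serpinb9, the granzyme inhibitor, by 0.87 (SE 0.11, adjusted p = 0.0281; 0.144 with the block; its other probe set differed by 0.0055). Of 11 AP-1 and Ets factors, a class known to act on urokinase and uPAR promoters, 2 rose and 1 fell (median 0.09), with the block 1 and 0, and without the filter 0 and 0: Ets1 rose by 0.75 (SE 0.08, adjusted p = 0.0243), Atf3 by 0.48 (SE 0.09, adjusted p = 0.0469; 0.212 with the block) and Ets2 fell by 0.68 (SE 0.08, adjusted p = 0.0244; 0.0613 with the block). Of all 5 lists, 0 genes were called in B or over all arrays, where 0.00% and 2.18% of all probe sets were.

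**Figure D5:**
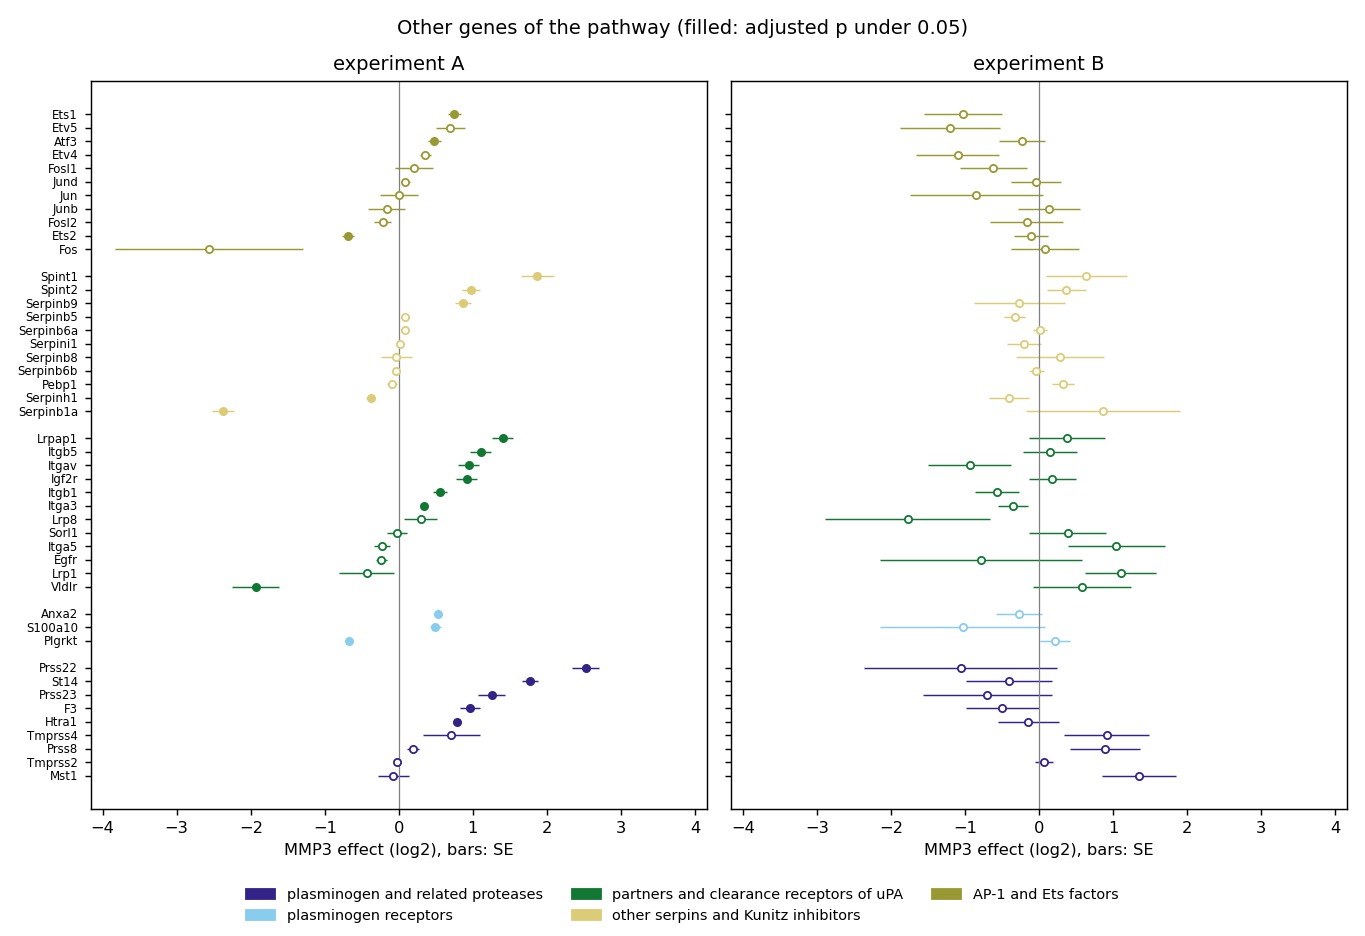
MMP3 effect (x axis, log2, bars of 1 SE) of each tested gene of the 5 lists in experiment A (left) and experiment B (right), coloured by list and ordered by the effect in A; filled points have an adjusted p under 0.05. Filled points occur in A, from Serpinb1a at -2.38 to Prss22 at 2.52, and B has no filled point.

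Markers of other cells that are known for these genes were read the same way. In bulk RNA fewer cells of a type and less RNA per cell cannot be told apart. Of 8 macrophage markers (cells known for Plau, Plaur and Serpinb2) 4 passed the filter and 0 were called in A or B; their summed value was 0.09 to 1.80 in controls and -0.13 to -0.01 with MMP3 in A, and -0.17 to 0.71 and 0.33 to 4.49 in B. Of 8 fibroblast markers 2 passed (Pdgfra and Dcn), with 0 called; their summed value was -0.49 to 2.15 in controls and -1.004 to 0.31 with MMP3 in A, and -1.30 to 0.63 and 0.22 to 2.46 in B, where Pdgfra differed by 1.52 (SE 0.54, adjusted p = 0.428, limma). Of 7 endothelial markers (cells known for Plat) 0 passed. Of 11 mammary epithelial markers 6 passed. In A 3 rose (Cldn4, Epcam and Cdh1) and 1 fell (Krt5), where 19.9% of all probe sets were called. The summed value of the 6 in A was -1.56 to -0.83 in controls and 1.56 to 2.58 with MMP3. In B 0 were called, and the summed value was -1.02 to 2.19 in controls and -6.61 to 5.38 with MMP3. The part of these markers in the results was not tested. Krt8, Krt18, Krt7 and Krt19 varied too little to pass, and since values are relative, the presence of a marker could not be checked.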

How the data were processed

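The authors deposited log2 expression values in 1 table of 45101 probe sets on 14 arrays; the submitters' processing notes name RMA. The log base is not stated, and log2 is the base RMA gives. The median of all 45101 probe sets over the arrays was 0 within 1e-06, a centring seen in the values. Versions and other steps: not given in the sources used here. No scanner files were used, so signal over background is unknown. Array medians lay between -0.02 and 0.03, and the number of arrays limits the precision.

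Agent, density and experiment came from the labels. Of 45037 probe sets that are not controls, 34945 had 1 symbol in the platform annotation, 932 had several and 9160 were unnamed. For 34741 of those with 1 symbol, the RefSeq symbol was taken through the Entrez identifier, whether or not it differed. limma 3.58.1 in R 4.3.3 (lmFit, eBayes, tested on simulated data) fitted agent, centred log2 density and their product in A, in B, and over the 14 arrays with a block for experiment, leaving 2, 4 and 9 residual degrees of freedom. The MMP3 effect is at the mean log2 density. The difference between experiments used density as a factor, agent, experiment and agent by experiment on 12 arrays. Correlations used scipy 1.17.1.

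The letters A and B mark separate experiments in the labels, which is where the block comes from. Deviations from the group means correlated between arrays of an experiment at 0.05 on average (-0.65 to 0.64 over 15 pairs of arrays).

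The rule for named genes was every member probe set, the 3 most similar probe sets for the more variable probe set of each gene (its lead), and up to 4 called genes per list by size. Epithelial markers named were chosen after their calls were seen. Members and lists were chosen with earlier results of these data known. Alternatives were other filters, 1 probe set per gene, array medians subtracted, no product term, matched pairs as a block, no experiment block, a robust prior and each array left out.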

Additional observations from a re-analysis of the deposited data

Results flagged for a closer look

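Serpinb2 on the control array at 250K of experiment A (-3.74) lay farther from the other 6 control arrays of both experiments than Dixon's 95% limit allows. Of 24 groups of 4 or 7 arrays examined this was the 1 past the limit. For draws from 1 condition chance alone puts about 1 group in 20 past it. These groups mix densities, and this 1 also mixes experiments. Plau 1422139_at and Plaur were higher with MMP3 in every pair of A and lower in every pair of B, with differences between the experiments of -3.19 and -3.62 on the log2 scale, each at limma adjusted p = 0.266.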

How the results depend on the processing

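Of 6 member probe sets, 4 were called for MMP3 in A. With no filter this was 1, as fitting all 45037 probe sets left 1853 called in place of 5379. With any array of A left out it was 0, as it was for all probe sets fitted. With matched pairs as a block 3 members and 3145 probe sets were called, and with 1 probe set per gene 2960 genes. A stricter filter (60th percentile) gave 6446. Over all arrays, 0 members were called, and 0 to 1 with an array left out; without the replicate block of experiment 0 members and 0 of the 589 probe sets passed, with matched pairs as a block 3 probe sets, and with the stricter filter 4. The difference between experiments gave 0 to 1 with an array left out. In both fits, the omissions that called a member also called more of all probe sets than the main fit did. Density slopes and the interaction gave 0 members under every alternative run. Leaving out arrays turned the sign of these uncalled values, given as lowest to highest. MMP3 over all arrays was -0.14 to 0.66 (Plau 1422139_at), -0.39 to 0.37 (Plau 1422138_at), -0.71 to 0.22 (Plaur) and -0.0013 to 0.0385 (Plat 1458553_at). MMP3 in A was -0.0575 to 0.93 for Serpinb2 and -0.0215 to 0.0189 for Plat 1458553_at, whose value in B was -0.0075 to 0.0693. The slope in B was -0.22 to 0.34 (Plau 1422139_at), -0.21 to 0.32 (Plau 1422138_at), -0.34 to 0.12 (Plaur) and -0.0451 to 0.0030 (Plat 1458553_at). The slope over all arrays was -0.29 to 0.21, -0.20 to 0.16 and -0.0231 to 0.0023 for both Plau probe sets in that order and Plat 1458553_at, whose slope in A was -0.0101 to 0.0118 and whose difference between experiments was -0.0231 to 0.0286. With array medians subtracted the slope in A of Plat 1458553_at was 0.0030 and its difference between experiments -0.0191. The cause of these changes was not tested. Among all other comparisons with the main values of members, 591 kept direction and side of the threshold, 30 in A fell short of it and 3 passed it.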
